A study of Mus musculus with 17 samples.

Results

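Collagens are the proteins whose chains carry a long glycine-repeat domain and wind into a triple helix of 3 alpha chains. The family was defined by gene symbol: every probe of the array whose annotated symbol reads as a collagen alpha chain (Col, a type number, the letter a and a chain number) was taken. This gave 91 probes of 41 genes, of 45281 probes on the array and 19057 genes with a single symbol. By the known assembly of their chains, 11 genes were placed in the fibrillar class, 6 in the basement membrane class and 24 in a class of other collagens. Membership of a gene rests on its name and on no measured value. Col6a3, Col12a1 and Col20a1 were not analysed here.

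The samples were whole tumours of MCA205, a transplantable mouse fibrosarcoma, that is, a malignancy of mesenchymal cells. They grew in wild-type (WT) C57bl/6 mice and were palpable when DX or PBS was injected into the tumour. DX is doxorubicin, an anthracycline that damages DNA, and PBS is the saline vehicle. Total RNA was read on 17 one-colour bead arrays in 6 groups. On day 2 there were 3 PBS and 2 DX tumours. Day 7 had 3 PBS tumours, 3 DX tumours that had responded and 3 that had not, and on day 10 there were 3 responders to DX. Responders and non-responders had been told apart by whether the tumour shrank, so that label is an outcome and not a treatment given at random. PBS tumours of day 10 were not analysed here. The labels do not say that the samples of a group came from separate animals, so every p-value below measures the spread between these samples, which may be technical. In RNA of a whole tumour, fewer collagen-making cells and less collagen RNA per cell cannot be told apart.

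Fibrillar collagens, types I, III and V among them, are secreted as procollagens, trimmed and cross-linked into the fibrils that give connective tissue its tensile strength. Type IV collagens instead form the sheet-like network of basement membranes, under epithelium and around blood vessels and muscle fibres. The remaining types include the beaded filaments of type VI, the anchoring fibrils of type VII, collagens that decorate fibrils, membrane-spanning collagens and types XV and XVIII of the basement membrane zone. In solid tumours these genes are best known as products of fibroblasts, and cells of a fibrosarcoma are themselves of fibroblast type.

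The promoter windows of 4 genes are shown because these genes belong to pairs followed together below: both type VI chains, Col1a2 as partner chain of Col1a1, and Col3a1 as neighbour of Col5a2. Each line gives the 250 bases before the annotated start of transcription, 5′ to 3′ on the strand of the gene, from RefSeq (GRCm38.p6). Capitals mark matches to 3 short promoter motifs, none of which overlaps another. The first is CCAAT, known as the CAAT box. The second is GGGCGG, the core of the GC box, and the last is TATAAA, the TATA box. Both strands were searched, and a match on the opposite strand shows as the reverse complement.
Col1a2: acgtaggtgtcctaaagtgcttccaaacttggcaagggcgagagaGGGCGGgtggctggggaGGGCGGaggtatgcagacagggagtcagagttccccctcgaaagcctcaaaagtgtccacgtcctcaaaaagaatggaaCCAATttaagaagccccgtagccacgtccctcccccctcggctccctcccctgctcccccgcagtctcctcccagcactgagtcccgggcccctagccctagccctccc
Col3a1: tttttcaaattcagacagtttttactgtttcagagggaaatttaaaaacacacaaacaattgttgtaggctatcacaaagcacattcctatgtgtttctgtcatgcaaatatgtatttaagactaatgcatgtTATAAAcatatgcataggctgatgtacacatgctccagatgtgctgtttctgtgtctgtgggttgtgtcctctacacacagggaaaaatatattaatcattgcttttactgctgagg
Col6a1: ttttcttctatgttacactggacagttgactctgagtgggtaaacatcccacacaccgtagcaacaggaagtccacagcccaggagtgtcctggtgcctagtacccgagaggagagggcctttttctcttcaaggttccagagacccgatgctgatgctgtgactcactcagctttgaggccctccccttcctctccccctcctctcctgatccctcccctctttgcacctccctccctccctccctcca
Col6a2: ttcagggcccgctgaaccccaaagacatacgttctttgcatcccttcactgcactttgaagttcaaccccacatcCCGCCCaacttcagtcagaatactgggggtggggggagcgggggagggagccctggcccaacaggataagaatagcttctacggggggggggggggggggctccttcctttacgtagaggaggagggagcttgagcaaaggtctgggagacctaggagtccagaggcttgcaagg

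The Col1a2 window is chr6:4505368-4505617 on the plus strand, and it holds 1 CCAAT and 2 GGGCGG. The Col3a1 window is chr1:45311288-45311537 on the plus strand, and it holds 1 TATAAA, 117 to 112 bases before the annotated start. A match is one of sequence alone, and whether it acts as a promoter element was not tested. The type VI windows lie on the minus strand of chromosome 10, Col6a1 at chr10:76726045-76726294 with no match and Col6a2 at chr10:76623631-76623880 with 1 GGGCGG on the opposite strand. Among 32851 windows of the same length, 33.8% held CCAAT, 32.7% GGGCGG and 12.4% TATAAA, so these matches are common. Of the 21 collagen genes tested, 18 had a window in the table; the others were Col1a1, Col5a2 and Col14a1. Col4a1 and Col4a2, the pair of chains that make the common type IV molecule, lie on opposite strands of chromosome 8 with annotated starts 21 bases apart.

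A probe was taken as detected on an array where its deposited detection p-value was under 0.01, and a gene was tested where a probe was detected on at least 2 arrays. By that rule 21 of the 41 collagen genes were tested, 8 fibrillar, 3 of the basement membrane and 10 others. The probe that represents the gene was detected on all 17 arrays for 15 of them. These were the type I, III and V chains Col1a1, Col1a2, Col3a1, Col5a1 and Col5a2, the type IV chains Col4a1, Col4a2 and Col4a5, and Col6a1, Col6a2, Col7a1, Col8a1, Col15a1, Col16a1 and Col18a1. The other 6 were detected on some arrays: Col27a1 on 15, Col5a3 on 14, Col24a1 on 9, Col17a1 on 5, and Col9a1 and Col14a1 on 3 each.

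Of the 20 genes not tested, 18 were not detected on any array. They include Col2a1, Col11a1, Col11a2, Col9a3 and Col10a1, the fibrillar and associated collagens best known from cartilage, and Col4a3 and Col4a6 of specialised basement membranes. Col4a4 was detected on 1 day 2 PBS array and Col9a2 on 1 day 7 responder array. Of 7 cartilage markers, 6 (Acan, Comp, Matn1, Matn3, Hapln1 and Chad) did not reach detection on 2 arrays. The other, the transcription factor gene Sox9, was detected on all 17 arrays, at 11.50 to 12.82. A signal that is not detected is only a bound set by the array's background.

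**Figure D1:**
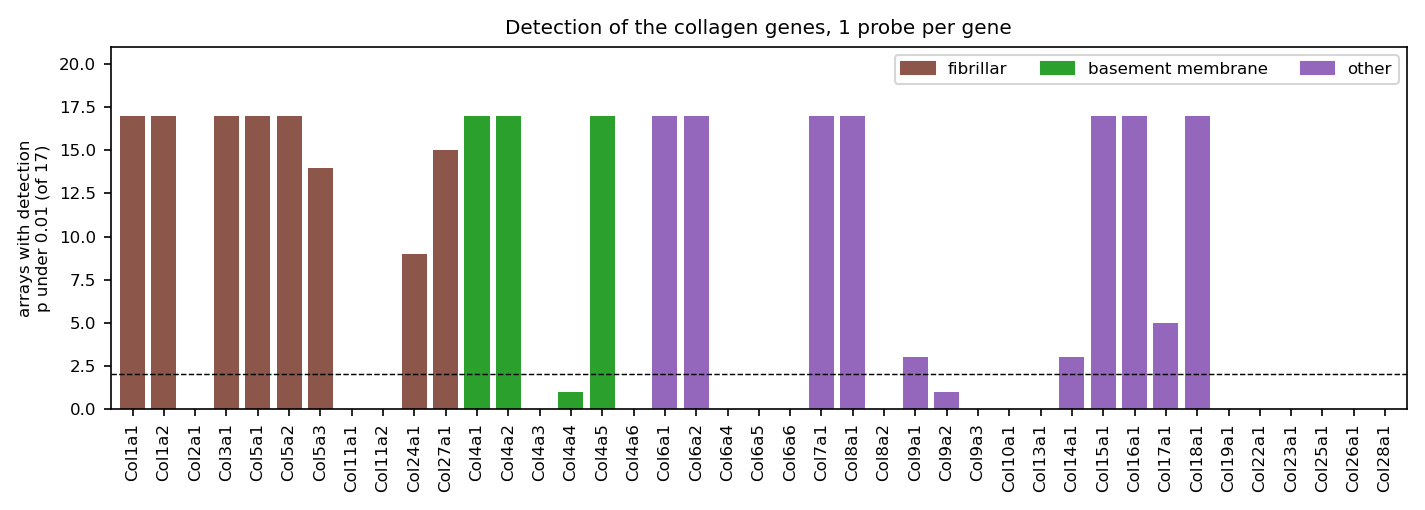
Number of arrays, of 17, on which the representative probe of each of the 41 collagen genes was detected, coloured by class. The dashed line marks the minimum of 2 arrays for a test; 15 genes reach 17 arrays and 18 stand at 0.

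Values below are log2 signals after background correction and quantile normalization, and a difference is a difference of group means on that scale. The normalization adds an offset of 16 to the corrected signal before the logarithm, so differences of dim probes are understated. Each gene is read by its probe of highest mean signal, and levels of different probes are not compared with each other. Each array detected 13728 to 15568 probes, and across genes r between arrays of the same group was 0.965 to 0.991. The responder arrays numbered 3, on day 7 and on day 10, were rich in skeletal muscle RNA: Acta1, skeletal muscle actin, read 13.39 and 13.10 there and at most 10.51 elsewhere. Of 18 muscle markers 16 were tested, and their mean level was 5.51 to 10.81 in day 7 responders, 5.44 to 10.60 in day 10 responders, 4.75 to 4.93 in day 7 PBS and 4.75 to 5.07 in non-responders. Results of the responder groups are therefore also given without those 2 arrays. Fibroblast and mesenchymal markers, 13 of 14 tested and among them Vim, Fn1, Pdgfra and Pdgfrb detected on all arrays, had a mean level of 8.60 to 9.09 over all arrays.

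Among the fibrillar genes, Col1a1 encodes the main chain of type I collagen, the bulk collagen of skin, bone and tumour stroma. It read 11.28, 11.09 and 11.08 in day 2 PBS, 10.84 and 11.10 in day 2 DX, 10.36, 10.50 and 10.07 in day 7 PBS, 11.18, 10.41 and 10.72 in non-responders, 10.82, 9.58 and 10.13 in day 7 responders, and 10.25, 9.77 and 9.56 in day 10 responders. All 3 day 2 PBS arrays were above all 3 day 7 PBS arrays, and the day 7 responder arrays spread over more than 1 unit. Non-responder and responder values overlapped.

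Col3a1 encodes the type III collagen that forms fine reticular fibrils and mixed fibrils with type I. Its values were 11.14, 11.41 and 11.63 in day 2 PBS, 11.47 and 12.20 in day 2 DX, 11.82, 11.21 and 11.34 in day 7 PBS, 11.64, 11.17 and 11.15 in non-responders, 11.60, 10.71 and 10.50 in day 7 responders, and 11.04, 11.60 and 10.56 in day 10 responders. The 3 lowest values were on day 7 responder replicates 2 and 3 and day 10 replicate 3, while responder replicate 1 lay among the PBS values. A second, dimmer probe of Col3a1 went the same way in 8 of 8 comparisons, and over all arrays the probes correlated with r = 0.535.

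Col5a1 encodes the type V chain that sits inside type I fibrils and sets their diameter. Its values were 12.01, 11.82 and 11.80 in day 2 PBS, 11.55 and 11.84 in day 2 DX, 11.62, 11.90 and 11.92 in day 7 PBS, 12.42, 12.00 and 12.21 in non-responders, 11.94, 11.90 and 11.68 in day 7 responders, and 12.09, 11.46 and 11.70 in day 10 responders. The 3 non-responder arrays were above every day 7 PBS and every day 7 responder array.

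Col4a1 and Col4a2 encode the chains of the type IV collagen found in nearly every basement membrane. Col4a1 read 11.50, 11.50 and 11.54 in day 2 PBS, 11.46 and 11.55 in day 2 DX, 11.67, 11.73 and 11.45 in day 7 PBS, 11.37, 11.74 and 11.83 in non-responders, 11.24, 11.43 and 11.26 in day 7 responders, and 11.54, 11.21 and 11.01 in day 10 responders. For Col4a2 the values were 10.84, 10.89 and 11.05 in day 2 PBS, 11.14 and 11.13 in day 2 DX, 11.24, 11.10 and 11.09 in day 7 PBS, 11.22, 11.19 and 11.15 in non-responders, 11.00, 10.68 and 11.06 in day 7 responders, and 10.91, 10.70 and 10.64 in day 10 responders. The day 7 responder arrays lay just below the day 7 PBS arrays for both genes, with a narrow gap. The standard deviation within groups, pooled over groups, was 0.17 for Col4a1 and 0.12 for Col4a2, the smallest of the 21 genes.

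Col4a5 encodes a type IV chain of kidney, lung and other specialised basement membranes. It read 8.56, 8.57 and 8.80 in day 2 PBS, 9.12 and 9.19 in day 2 DX, 8.78, 8.64 and 8.31 in day 7 PBS, 8.74, 8.63 and 8.92 in non-responders, 8.56, 8.55 and 8.61 in day 7 responders, and 8.74, 8.70 and 7.87 in day 10 responders. Both day 2 DX arrays were above all 3 day 2 PBS arrays. A second probe of Col4a5, also detected on all 17 arrays, correlated with the first at r = 0.024. Its day 2 values were 7.16, 7.25 and 7.56 in PBS and 7.54 and 7.99 in DX, so there the groups overlapped.

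In the class of other collagens, Col6a1 encodes a chain of the beaded filaments that link cells to the fibrillar matrix. It read 13.07, 12.81 and 13.00 in day 2 PBS, 12.95 and 13.25 in day 2 DX, 12.93, 13.22 and 13.24 in day 7 PBS, 13.46, 13.17 and 13.43 in non-responders, 12.86, 12.75 and 12.74 in day 7 responders, and 13.19, 12.44 and 12.74 in day 10 responders. The 3 day 7 responder arrays were below every day 7 PBS and every non-responder array. A second probe of Col6a1, detected on all arrays, also had the responders lowest: 12.09, 12.33 and 12.11 in day 7 PBS, 12.35, 12.30 and 12.57 in non-responders and 12.01, 11.81 and 11.93 in responders. One more probe was detected on 3 arrays.

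Col16a1 encodes a minor collagen that associates with fibrils. It read 11.71, 11.79 and 11.75 in day 2 PBS, 11.78 and 12.09 in day 2 DX, 11.89, 11.22 and 11.57 in day 7 PBS, 11.71, 11.66 and 11.40 in non-responders, 11.69, 11.36 and 11.38 in day 7 responders, and 11.49, 11.68 and 11.31 in day 10 responders. Its groups overlapped in every comparison of day 2 or day 7.

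Col18a1 encodes the basement membrane collagen from which the angiogenesis inhibitor endostatin is cut. It read 10.70, 10.64 and 10.59 in day 2 PBS, 10.54 and 10.70 in day 2 DX, 10.65, 10.93 and 10.26 in day 7 PBS, 10.45, 10.41 and 10.75 in non-responders, 10.47, 10.16 and 10.05 in day 7 responders, and 10.44, 10.13 and 9.78 in day 10 responders. Day 10 replicate 3 was the lowest array, and day 7 PBS and responder values overlapped. A second probe, detected on 13 arrays, had the sign of the first in 5 of 8 comparisons.

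**Figure D2:**
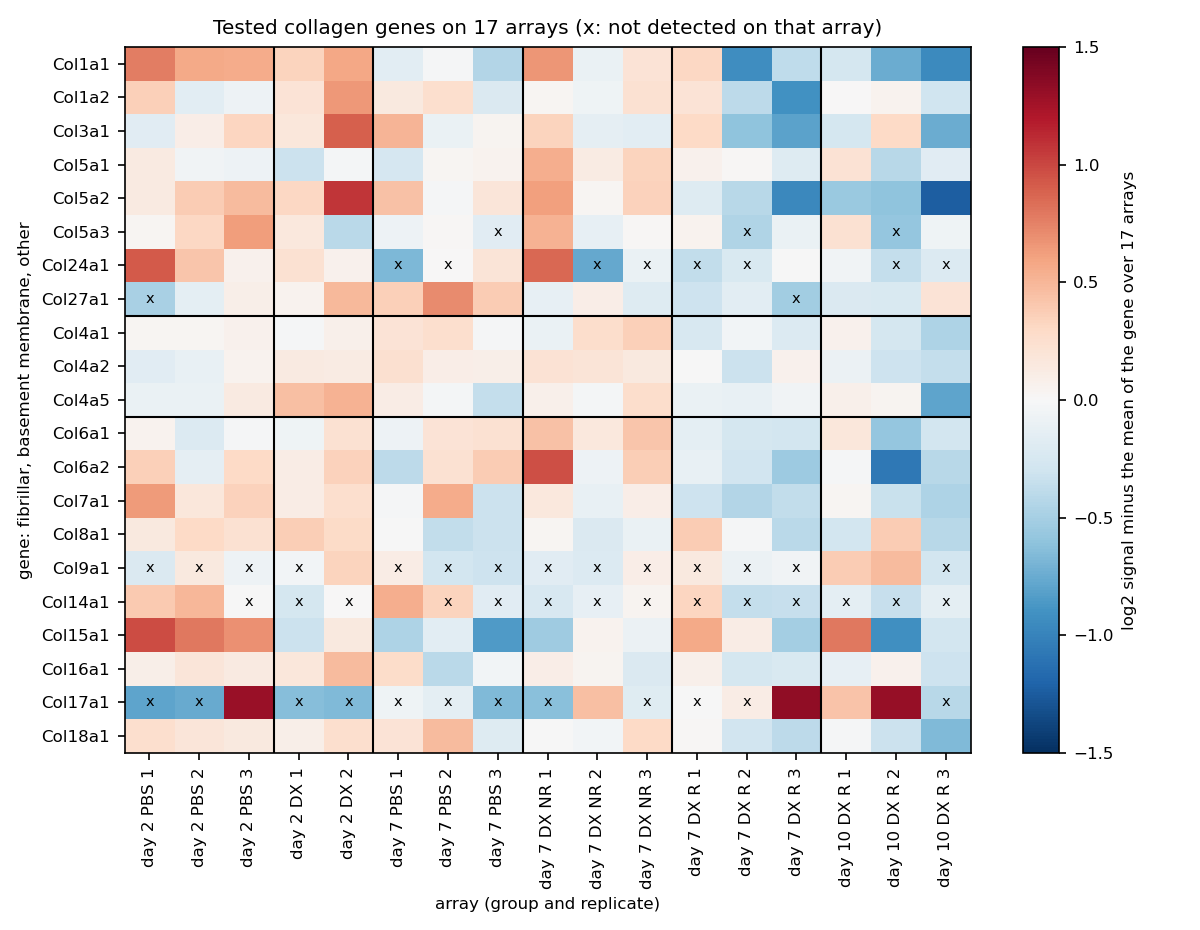
Log2 signal of the 21 tested collagen genes (rows, by class) on 17 arrays (columns, by group and replicate; NR, non-responders; R, responders), each gene shown as the difference from its mean over all arrays with the colour scale ending at 1.5 in either direction. An x marks an array on which the probe was not detected; the bluest columns are day 7 responder replicate 3 and day 10 responder replicate 3.

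Across the whole family the lowest arrays were mostly those of responders. Of the 21 genes, 17 had their lowest value on 1 of the 6 responder arrays, 11 of them on the 2 muscle-rich arrays and 5 on day 10 replicate 2. The same count was not made over all features, so whether it is particular to collagens cannot be told from it. Over the 15 genes detected everywhere, the median deviation from the gene's mean was -0.38 on day 7 responder replicate 3, -0.42 on day 10 replicate 3, -0.32 on day 10 replicate 2 and -0.29 on day 7 responder replicate 2. On day 7 responder replicate 1 and day 10 replicate 1 it was 0.02 and -0.01, close to the gene means. Day 2 DX replicate 2 stood highest at 0.29. The share of skeletal muscle RNA moved with this on 2 of the 4 low arrays, and its part in the low values was not tested; on day 7 responder replicate 2 and day 10 replicate 2 the muscle markers had a mean of 5.51 and 5.44.

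**Figure D3:**
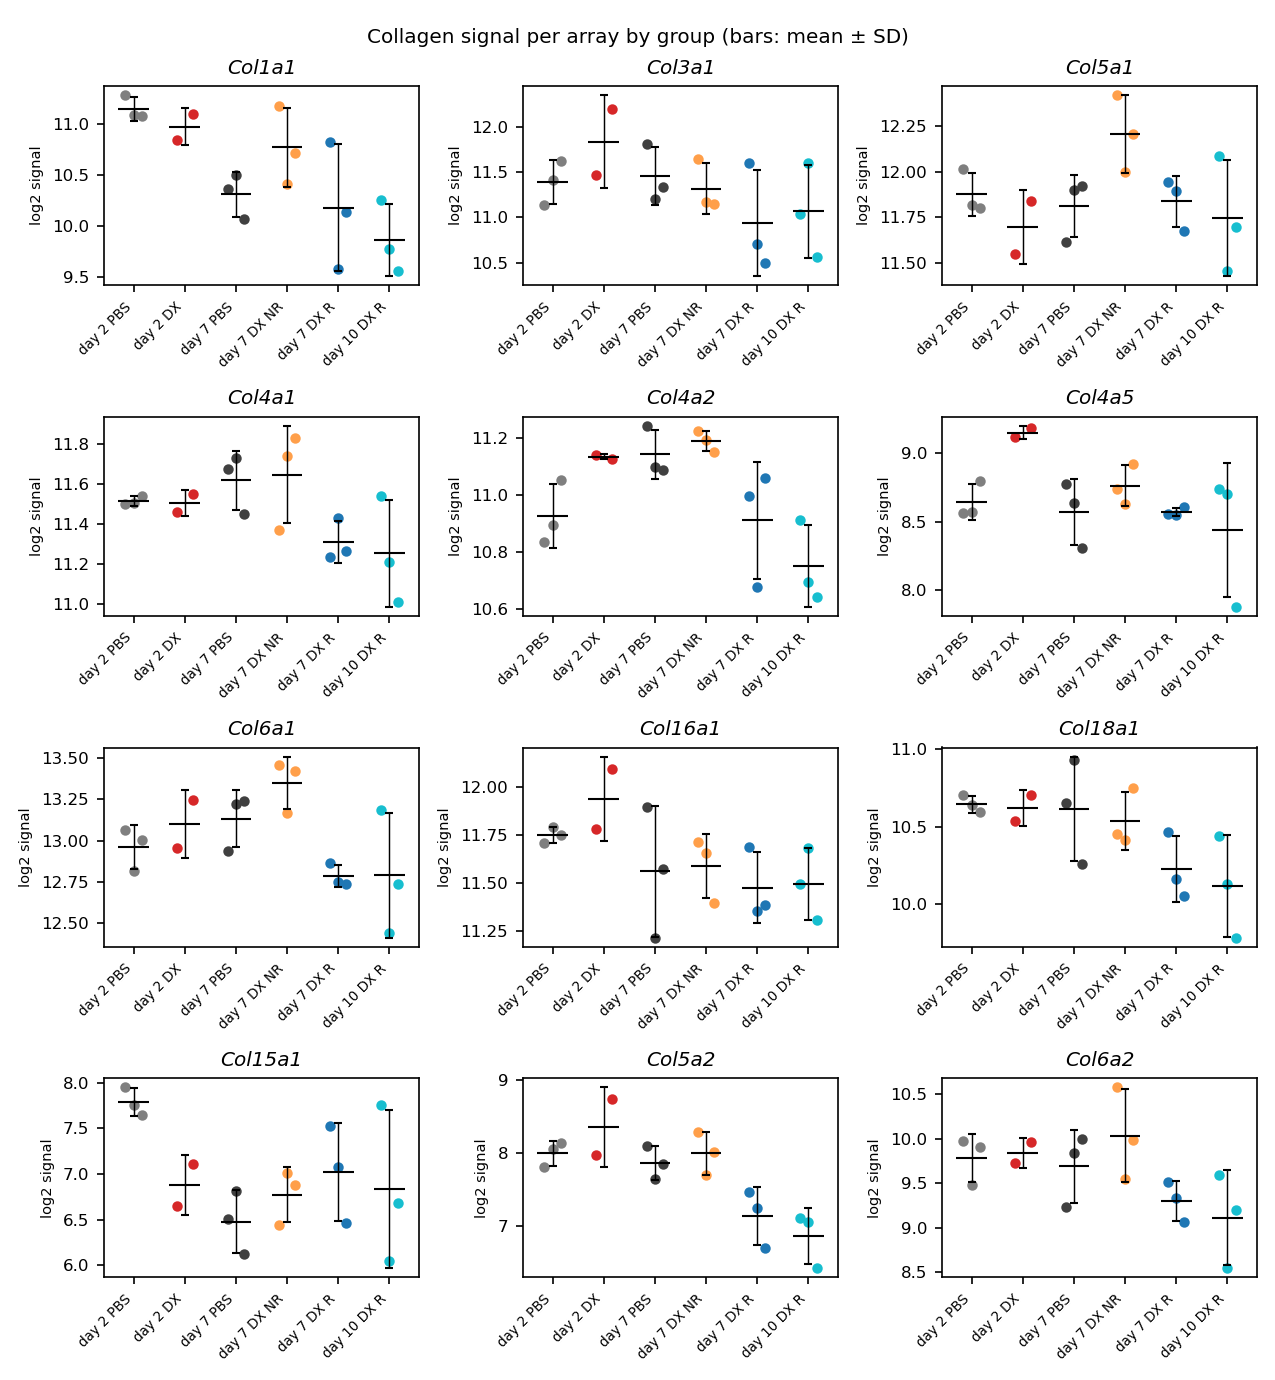
Log2 signal of 12 collagen genes on each array (points) in the 6 groups (NR, non-responders; R, responders), with the group mean as a bar and the SD as whiskers; each panel has its own vertical range. Col15a1 was 7.65 or above on the 3 day 2 PBS arrays and 6.81 or below on the 3 day 7 PBS arrays, and Col5a2 was lowest on the responder arrays of both days.

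On day 2 after injection, no collagen gene differed between DX and PBS tumours beyond the test's threshold. limma, with Benjamini-Hochberg adjustment over 12451 features and a threshold of 0.05, called 0 of the 21 collagens, against 76 of all features (0.61%). At an unadjusted p under 0.05, 1 collagen was higher and 1 lower, against 3.38% and 3.53% of all features. The higher one was Col4a5, with a log2 difference of 0.51 ± 0.21 (SE, 95% interval 0.08 to 0.95, adjusted p = 0.578 by limma). The lower one was Col15a1, named here after its values were seen, at -0.91 ± 0.38 (adjusted p = 0.612 by limma). Col15a1 encodes a collagen of the basement membrane zone of capillaries and muscle, and it read 7.95, 7.76 and 7.65 in PBS and 6.64 and 7.11 in DX, without overlap.

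The fibrillar genes had no common direction on day 2. Of 8, 4 were lower and 4 higher in DX, with a median difference of 0.09, and Col1a1 and Col5a1 differed by -0.18 each, while Col3a1 differed by 0.45 (95% interval -0.21 to 1.10). Over all 21 genes 10 differences were negative (54.1% of all features) and the median was 0.05, against -0.02 over all features, and groups did not overlap for 1 lower and 2 higher collagens (15.9% and 12.2% of all features). Within BeadChip 3, the slide that holds both groups, the median difference of the collagens was 0.09, and with the BeadChip as a block it was 0.19. Col5a2 rested on the DX arrays, with a difference of 0.36 and with 0.74 without DX replicate 1 and -0.03 without DX replicate 2. With only the 5 day 2 arrays in the fit, Col15a1 passed (adjusted p = 0.032 by limma).

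On day 7, DX tumours that responded were set against PBS tumours. No collagen passed, against 66 of all features (0.53%), and most collagen differences were negative. At an unadjusted p under 0.05, 7 of 21 were lower and 0 higher, beside 5.61% of all features that were lower and 8.21% higher. Groups did not overlap for 5 lower genes (7.98% of all features) and 1 higher (11.2%), or 6 in either direction (19.2%). The difference was negative for 16 of 21, with a median of -0.23, and for 48.3% of all features, with a median of 0.01. Over the 15 genes detected on every array, 12 were negative with a median of -0.31, against -0.00 over the 8807 features detected on every array.

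The 7 genes came from all 3 classes, and those outside the 9 described above are named after their values were seen. Among the fibrillar genes Col27a1, a fibrillar collagen of cartilage and other tissues, differed by -0.82 ± 0.21 (95% interval -1.26 to -0.37, adjusted p = 0.0955 by limma), with 5.99, 6.35 and 6.02 in PBS and 5.32, 5.48 and 5.11 in responders, near the detection limit. Col5a2, the partner chain of Col5a1, read 8.10, 7.64 and 7.85 in PBS and 7.47, 7.25 and 6.70 in responders, a difference of -0.72 ± 0.24 (95% interval -1.23 to -0.21, adjusted p = 0.202 by limma). In both genes every responder array lay below every PBS array. The type IV chains Col4a1 (-0.31 ± 0.13, adjusted p = 0.311 by limma) and Col4a2 (-0.23 ± 0.11, adjusted p = 0.352) were lower, while Col4a5 differed by -0.00 ± 0.19. The others were Col6a1 (-0.35 ± 0.15, adjusted p = 0.311), Col18a1 (-0.39 ± 0.17, adjusted p = 0.325) and Col7a1 of anchoring fibrils (-0.45 ± 0.19, adjusted p = 0.297). A second probe of Col7a1, detected on 5 arrays, had the sign of the first in 5 of 8 comparisons.

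Col1a1 differed by -0.13 (95% interval -0.65 to 0.39) and Col5a1 by 0.03 (95% interval -0.28 to 0.34). Without the muscle-rich responder array the median over 21 genes was -0.15, with 16 negative. At an unadjusted p under 0.05, 4 genes were then lower (4.47% of all features) and 2 higher. With responder replicate 3 as the only array left out of the fit, 3 were lower (4.34%) and 2 higher. The lower count was 3 without responder replicate 2 (4.24%), 2 without PBS replicate 2 (4.47%) and 4 with the BeadChip as a block (2.63%), with 0 higher in these. It was 9 without responder replicate 1 (6.72%), 7 without PBS replicate 3 (4.67%) and 5 without PBS replicate 1 (5.18%), again with 0 higher. With BeadChip in the model the median came to -0.12, and it was -0.12 without background correction, -0.11 on the authors' processed values and -0.11 without responder replicate 2. On BeadChip 3, with a single array from either group, the median was -0.07 and 11 of 21 genes were negative.

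Col17a1 encodes the membrane-spanning collagen of the hemidesmosomes of basal epidermal cells, and it lay near background. Its 3 kept probes were detected on 7 arrays between them and on no day 7 PBS array. The representative probe was detected on day 2 PBS replicate 3 (6.42), non-responder replicate 2 (5.57), day 7 responder replicate 3 (6.46) and day 10 replicates 1 and 2 (5.56 and 6.43), and its responder arrays all lay above the PBS arrays. A second probe was detected on 6 arrays, among them non-responder replicate 1 (5.46) and day 10 replicate 3 (5.30), where the first was not. On that probe the day 7 values were 4.52, 4.36 and 4.36 in PBS, 5.46, 5.86 and 5.23 in non-responders and 4.80, 4.65 and 6.26 in responders, so non-responders too were above PBS. Its difference from PBS, where it was at background, was 1.11 for non-responders (adjusted p = 0.361 by limma) and 0.82 for responders (adjusted p = 0.42).

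Krt14, the keratin of the same cells, read 10.22 on day 2 PBS replicate 3, 12.11 on non-responder replicate 2, 12.92 on day 7 responder replicate 3 and 8.87, 9.99 and 11.72 on the day 10 arrays. It read 5.13 on non-responder replicate 1, and 9.08 on day 7 responder replicate 2, where no probe of Col17a1 was detected. Skin epithelium markers, 7 of 12 tested with Krt15, Dsg3 and Perp under the detection filter, had a mean level of 5.10 to 5.38 in day 7 PBS and 5.56 to 8.86 in day 7 responders. Their part in the Col17a1 values was not tested.

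Tumours that did not respond were then set against the same PBS tumours. No collagen passed, against 16 of all features (0.129%). Of 21 differences 16 were positive and 5 negative (47.4% of all features were negative), with a median of 0.13 against 0.02 over all features. At an unadjusted p under 0.05, 1 gene was higher and 1 lower, against 6.59% and 4.18% of all features. The higher one was Col5a1 (0.39 ± 0.15, 95% interval 0.08 to 0.71, adjusted p = 0.341 by limma), and the lower one Col27a1 (-0.56 ± 0.21, adjusted p = 0.354), with 5.51, 5.73 and 5.45 in non-responders. Both had no overlap with PBS (6.28% of all features lower, 8.45% higher). Without non-responder replicate 1 or without PBS replicate 1, 0 genes were higher at that threshold, and without non-responder replicate 2 there were 3. Col1a1 differed by 0.46 (95% interval -0.06 to 0.98) and Col4a1 and Col4a2 by 0.03 and 0.05. Within BeadChip 2, with 2 arrays of each group, the median was 0.19 and 2 of 21 genes were negative. Over all arrays it was 0.03 without non-responder replicate 1 (8 negative), 0.03 without PBS replicate 3 (9 negative) and 0.05 both without background correction and on the authors' processed values. Leukocyte and macrophage markers, 5 of 8 tested, had a mean level of 8.69 to 8.82 in non-responders and 9.02 to 9.14 in PBS, without overlap, and their part was not tested.

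With responders and non-responders in one DX group of 6 arrays, Col27a1 was the 1 collagen lower than in PBS at an unadjusted p under 0.05 (5.59% of all features), by -0.69 ± 0.18 (adjusted p = 0.102 by limma), and no collagen was higher (8.58%). Its 6 DX arrays were all below the 3 PBS arrays (2.41% of all features), and no collagen lay wholly above them (3.91%), so that 1 of 21 did not overlap (6.32% in either direction). No collagen passed, against 37 features (0.297%), and 12 of 21 differences were negative (47.4%) with a median of -0.03. The size of the Col27a1 difference depends on how background is treated: for responders it was -0.28 without background correction and -0.26 on the authors' processed values.

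The 2 DX outcomes of day 7 were also set against each other. limma called 0 of 12451 features (0%), with 711 at an unadjusted p under 0.05 (5.71%), and so 0 of 21 collagens. At an unadjusted p under 0.05, 8 of 21 collagens were lower in responders, against 2.75% of all features, and 0 were higher, against 2.96%. Groups did not overlap for 7 lower collagens (5.42%) and 0 higher (5.51%). The difference was negative for 17 of 21 genes, with a median of -0.30, and for 50.5% of all features, with a median of -0.00. All 8 fibrillar genes (median -0.38) and all 3 type IV genes (median -0.28) were negative, and 6 of the 10 others (median -0.07).

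The type VI chains were among the lower genes. Col6a1 differed by -0.57 ± 0.15 (95% interval -0.88 to -0.25, adjusted p = 0.687 by limma). Col6a2, its partner chain, read 10.58, 9.54 and 9.98 in non-responders and 9.51, 9.33 and 9.07 in responders, a difference of -0.73 ± 0.27 (adjusted p = 0.788). Col5a2 had 8.28, 7.69 and 8.01 in non-responders, all above the responder values, and differed by -0.86 ± 0.24 (95% interval -1.37 to -0.34, adjusted p = 0.687). Its second, dimmer probe read 6.13, 4.67 and 5.83 in non-responders and 5.67, 4.89 and 4.57 in responders, with overlap. The remaining 5 were Col1a1 (-0.59 ± 0.25, adjusted p = 0.804), Col5a1 (-0.37 ± 0.15, adjusted p = 0.799), Col4a1 (-0.34 ± 0.13, adjusted p = 0.799), Col4a2 (-0.28 ± 0.11, adjusted p = 0.798) and Col7a1 (-0.43 ± 0.19, adjusted p = 0.809). Each adjusted p is that of limma over all features. The second probe of Col7a1, detected on few arrays, read 4.47, 5.04 and 4.74 in non-responders and 5.31, 4.55 and 4.49 in responders, with overlap. Col3a1, at -0.38 (95% interval -0.97 to 0.20), and Col18a1, at -0.31 (95% interval -0.66 to 0.05), had intervals that include no difference on their representative probes. Their second, dimmer probes differed by more, Col3a1 by -0.81 (adjusted p = 0.68 by limma over all probes) and Col18a1 by -0.58 (adjusted p = 0.831). Against PBS the second probe of Col3a1 was at -0.92 (adjusted p = 0.0706) and that of Col18a1 at -0.23 (adjusted p = 0.691).

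These counts moved with single arrays. Between 3 and 10 collagens were lower at an unadjusted p under 0.05 when each array was left out in turn, beside 2.24% to 3.57% of all features. The count was 3 when responder replicate 3 was out (2.3% of all features), 4 when non-responder replicate 1 was out (3.11%) and 5 when responder replicate 2 was out (2.84%). With responder replicate 1 out it was 10 (3.13%). The median stayed between -0.37 and -0.22. Without the muscle-rich arrays it was -0.22, with 16 genes negative and 4 lower at that threshold (2.47% of all features). With the BeadChip as a block it was -0.25, with 5 lower (2.55%). Within BeadChip 1, with 2 responder arrays and 1 non-responder array, the median was -0.29 and 17 genes were negative, but both responder arrays there are among the 4 arrays with low collagen values. The comparisons of responders and of non-responders with PBS share their 3 PBS arrays, and so are not independent. Fibroblast and mesenchymal markers had a mean level of 8.73 to 9.09 in non-responders, 8.67 to 8.87 in responders and 8.79 to 8.91 in PBS. Single markers moved in both directions at an unadjusted p under 0.05. In responders against non-responders, 5 of 13 were lower and 2 higher, beside 2.75% and 2.96% of all features. Against PBS, beside 5.61% and 8.21% of all features, 4 of the 13 markers were lower and 3 higher. One of them, Thy1, a surface protein of fibroblasts and T cells, rose in responders against PBS (8.53, 8.66 and 9.64 in PBS, 10.24, 9.90 and 10.12 in responders, adjusted p = 0.0471 by limma). Fap and Pdgfra, of the same list and named after their values were seen, lay lower in responders. Fap read 6.95, 6.72 and 6.69 in PBS and 6.08, 6.32 and 5.63 in responders. Pdgfra read 10.61, 10.76 and 10.78 in PBS and 10.40, 10.30 and 10.41 in responders. The part of the fibroblast and mesenchymal markers in the collagen values was not tested.

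**Figure D4:**
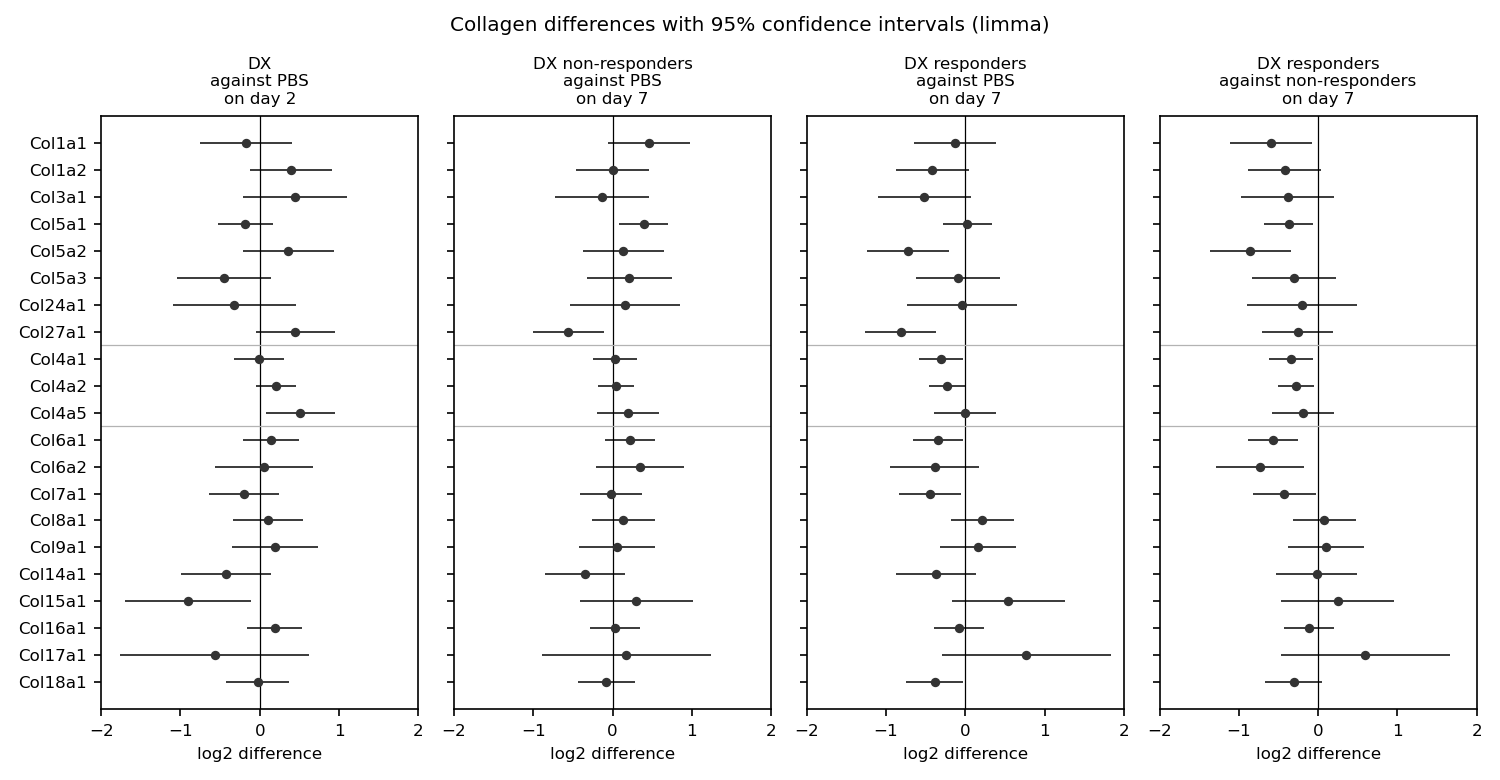
Log2 difference of each of the 21 tested collagen genes with its 95% confidence interval (limma) in 4 comparisons, with grey lines between the fibrillar, basement membrane and other classes. Responders lie left of 0 for 17 of 21 genes against non-responders and for 16 of 21 against PBS, and non-responders lie right of 0 for 16 of 21 against PBS.

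From day 7 to day 10 the collagens of responders did not move beyond their spread. limma called 1 of all features (0.00803%) and 0 collagens. At an unadjusted p under 0.05 no collagen was lower or higher (2.3% and 1.62% of all features, 3.92% in all). Groups overlapped for every one of the 21, while 4.44% of all features lay wholly lower and 2.79% wholly higher. Differences ranged from -0.32 for Col1a1 (95% interval -0.83 to 0.20) to 0.28, and 13 of 21 were negative (52.9%) with a median of -0.06. Col4a1 differed by -0.06 (95% interval -0.33 to 0.22) and Col6a1 by 0.00 (95% interval -0.31 to 0.32). The median was 0.11 within BeadChip 1 and -0.16 within BeadChip 3, and 0.01 without the muscle-rich arrays.

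In PBS tumours, day 7 was compared with day 2, and the differences of Col15a1 and Col1a1 missed the threshold. limma called 79 of all features (0.634%) and 0 of 21 collagens. Col15a1 had the day 2 values given above, 7.65 or more, and on day 7 its highest was 6.81 and its lowest 6.12, a difference of -1.31 ± 0.34 (95% interval -2.02 to -0.59, adjusted p = 0.0867 by limma). Col1a1, with the values given above, differed by -0.84 ± 0.25 (95% interval -1.35 to -0.32, adjusted p = 0.125). Col8a1, which encodes a network-forming collagen of vessel walls and the cornea, differed by -0.46 ± 0.19 (adjusted p = 0.278), and Col27a1 by 0.67 ± 0.21 (adjusted p = 0.161). Those were the 3 lower and the 1 higher collagen at an unadjusted p under 0.05, against 7.57% and 6.91% of all features.

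No other collagen reached that unadjusted threshold on its representative probe. Of these Col24a1, near background, differed most, by -0.63 ± 0.33 (95% interval -1.32 to 0.07). Col4a5 differed by -0.07, but its second probe read 7.16, 7.25 and 7.56 on day 2 and 7.80, 8.00 and 7.88 on day 7, without overlap. Groups did not overlap for 4 lower and 2 higher collagens (12.1% and 10.5% of all features), and 15 of 21 differences were negative (52.5%) with a median of -0.10. Col1a2, the partner chain of Col1a1, differed by 0.02 (95% interval -0.44 to 0.48). Col3a1 differed by 0.06 (95% interval -0.53 to 0.65) and Col4a2 by 0.22 (95% interval -0.01 to 0.44). Col1a1 differed by -0.996 within BeadChip 2 and by -0.72 within BeadChip 3, and Col15a1 by -1.49 and -1.20. For Col1a2 these were -0.34 and 0.27. With only the 6 PBS arrays in the fit, Col1a1 (adjusted p = 0.0108 by limma) and Col15a1 (adjusted p = 0.0132) passed. The Col15a1 difference was -0.75 without background correction and -0.71 on the authors' processed values. Endothelial markers, 11 of 12 tested with Kdr under the detection filter, had a mean level of 7.23 to 7.52 on day 2 and 6.94 to 7.24 on day 7 in PBS tumours. Leukocyte and macrophage markers had a mean of 9.25 to 9.26 on day 2 and 9.02 to 9.14 on day 7, without overlap, but single markers moved both ways. At an unadjusted p under 0.05, 1 of 5 was higher and 1 lower, beside 6.91% and 7.57% of all features. Adgre1 went from 9.79, 10.12 and 9.97 down to 9.31, 9.11 and 9.00. Lyz2 went from 10.92, 11.03 and 11.12 up to 11.22, 11.40 and 11.74. Skeletal muscle markers were at 4.63 to 6.91 on day 2 and 4.75 to 4.93 on day 7. The part of these cells in the Col15a1 and Col1a1 differences was not tested.

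The DX effect of day 7, over all 6 DX tumours, was also compared with the DX effect of day 2. No collagen passed, against 28 of all features (0.225%), and 1 was lower and 1 higher at an unadjusted p under 0.05 (3.24% and 4.79%). For Col27a1 the effect of day 7 minus that of day 2 was -1.14 ± 0.30 (adjusted p = 0.206 by limma), and for Col15a1 it was 1.33 ± 0.48 (adjusted p = 0.454). Of 21 such differences 13 were negative (45.5%). Both comparisons of DX with PBS enter this difference, so it adds no independent arrays.

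Chains that are assembled into one molecule, or genes that stand side by side, were followed across all 17 arrays in 4 pairs. The permutations moved values freely over the 17 arrays, across groups and BeadChips. A difference between groups that both genes share therefore counts towards each permutation p, and r within groups is given beside it. Col6a1 and Col6a2 had Pearson r = 0.889 and Spearman rho = 0.909 (permutation p = 1e-05 for each, the smallest that 100000 permutations can give; adjusted over the 4 pairs 4e-05). Of 12450 other features, Col6a2 had the highest correlation with Col6a1. The relation held without the 2 arrays farthest from the median of Col6a1 (r = 0.794), within groups (r = 0.884), and within BeadChips 1, 2 and 3 (r = 0.765, 0.616 and 0.913).

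Col3a1 and Col5a2 are neighbours on chromosome 1 with no annotated gene between them. They had r = 0.8 and rho = 0.744 (permutation p = 0.00016 and 0.00107, adjusted 0.00032 and 0.00214), with 0.667 without the 2 farthest arrays, 0.86 within groups and 0.911, 0.746 and 0.636 within the BeadChips. The type I chains Col1a1 and Col1a2, which join in a ratio fixed by the molecule, were looser at r = 0.562 and rho = 0.598 (permutation p = 0.0165 and 0.0129, adjusted 0.0165 and 0.0163). That relation was 0.457 without the 2 farthest arrays, 0.582 within groups and 0.13 within BeadChip 3. Col1a2 ranked 738 among the features by correlation with Col1a1.

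The type IV genes Col4a1 and Col4a2 had r = 0.609 and rho = 0.581 (permutation p = 0.01 and 0.0163, adjusted 0.0133 and 0.0163). Within groups r was 0.135, and within BeadChips 0.631, 0.084 and 0.785. Quantile normalization and the total collagen level of an array are shared by all pairs.

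**Figure D5:**
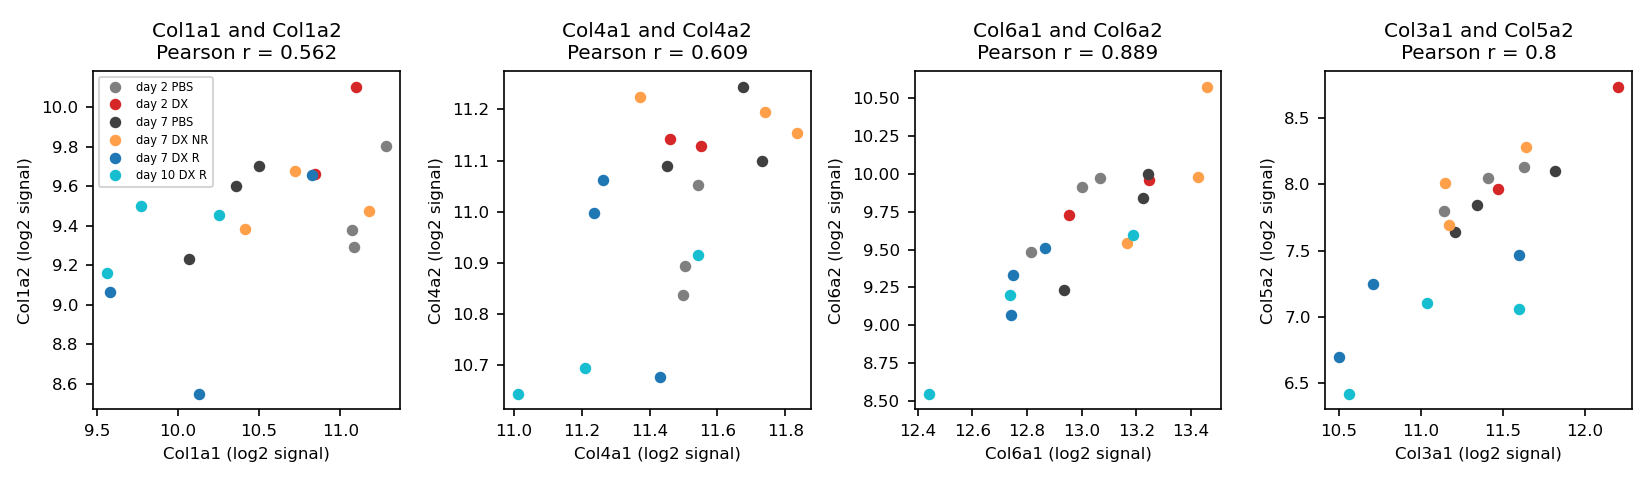
Log2 signal of the second gene (vertical axis) against the first (horizontal axis) of 4 collagen pairs on 17 arrays, coloured by group (NR, non-responders; R, responders). Pearson r is 0.562 for Col1a1 and Col1a2, 0.609 for Col4a1 and Col4a2, 0.889 for Col6a1 and Col6a2, and 0.8 for Col3a1 and Col5a2.

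The genes that make, bind and degrade collagen were read from 6 lists of known function. Among 16 tested genes of collagen modification and folding, 1 passed in the comparison of PBS tumours over time (0.634% of all features): P4ha1, a catalytic subunit of the enzyme that hydroxylates proline and so lets the helix hold, rose from day 2 to day 7. It went from 7.55, 7.92 and 7.63 to 8.72, 8.48 and 9.36 (1.16 ± 0.20, adjusted p = 0.0119 by limma). Its partner subunit P4hb differed by 0.16 (adjusted p = 0.404) and Serpinh1, the collagen chaperone HSP47, by -0.13 (adjusted p = 0.666). In the other 7 comparisons 0 of 16 passed, and P4hb and Serpinh1 differed by -0.09 and -0.06 on day 2 and by -0.01 and 0.01 between responders and PBS.

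Of 8 tested genes of procollagen cleavage and cross-linking, 1 passed in the same comparison (0.634% of all features). Tgm2, a cross-linking transglutaminase, fell in PBS tumours from 11.73, 11.89 and 11.76 on day 2 to 11.23, 10.95 and 11.31 on day 7 (-0.63 ± 0.13, adjusted p = 0.0287 by limma). Loxl1, a lysyl oxidase that starts cross-links, differed by -0.17 there (adjusted p = 0.516) and by 0.05 between responders and PBS (adjusted p = 0.867). Lox, another lysyl oxidase gene, named after its values were seen, read 8.18, 8.78 and 9.02 in day 7 PBS. It read 9.34, 9.19 and 9.37 in non-responders and 9.48, 9.48 and 9.32 in responders (adjusted p = 0.321 and 0.145 against PBS by limma). Of 5 tested collagen-degrading enzymes, 1 passed in PBS tumours over time (0.634% of all features). Ctsk, the collagen-cutting cathepsin of osteoclasts and fibroblasts, fell over the same time from 7.30, 7.75 and 7.43 to 6.34, 6.61 and 6.08 (-1.15 ± 0.24, adjusted p = 0.0342). The gelatinase gene Mmp2 differed by 0.43 in non-responders (adjusted p = 0.0984) and by 0.06 in responders (adjusted p = 0.815) against PBS, and the membrane collagenase gene Mmp14 by 0.16 and -0.11. Mmp9, another gelatinase gene, named after its values were seen, read 10.39, 10.37 and 10.25 in day 7 PBS and 9.64, 9.72 and 9.46 in responders (-0.73 ± 0.17, adjusted p = 0.0632).

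Of 9 tested basement membrane partners of type IV collagen, the proteoglycan gene Agrn passed in 2 comparisons, beside 0.61% of all features on day 2 and 0.53% in responders against PBS. On day 2 it rose from 10.77, 10.92 and 10.93 in PBS to 11.61 and 11.57 in DX (0.72 ± 0.11, adjusted p = 0.00282 by limma). On day 7 it rose from 10.86, 11.16 and 10.91 in PBS to 11.49, 11.61 and 11.35 in responders (0.51 ± 0.10, adjusted p = 0.0404). Hspg2, which encodes perlecan, differed by 0.03 and 0.13 in the same comparisons and passed in neither. Beside Agrn, Col4a1 and Col4a2 differed by -0.31 and -0.23 between responders and PBS.

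None of the 7 tested collagen receptor and uptake genes passed in the 8 comparisons (limma). The collagen-binding tyrosine kinase genes Ddr1 and Ddr2 differed by -0.03 and 0.31 between responders and PBS (adjusted p = 0.935 and 0.585). Nor did any of the 5 tested small leucine-rich proteoglycans, which coat collagen fibrils. Bgn and Dcn, which encode biglycan and decorin, differed by -0.22 and -0.18 between responders and PBS (adjusted p = 0.486 and 0.639) and by 0.02 and -0.10 between non-responders and PBS (adjusted p = 0.98 and 0.854). Prelp, of the same list and named after its values were seen, read 6.88, 6.84 and 7.66 in day 7 PBS and 9.04, 8.27 and 8.77 in responders (1.57 ± 0.37, adjusted p = 0.0612 by limma). At an unadjusted p under 0.05, 2 of the 5 proteoglycans were higher in responders than in PBS (8.21% of all features) and 0 lower (5.61%). The 2 were Prelp and Lum, which encodes lumican.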

How the data were processed

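Per the file headers, the deposited table gives for each probe on each array a signal intensity that was not yet normalized, along with its detection p-value. The submitters' processing notes name GenomeStudio 2011.1, and no source used here gives the detection method. A second deposited table, of processed intensity values, served as an alternative only. Groups and replicate numbers came from the sample titles, and BeadChips 1, 2 and 3 (6, 5 and 6 arrays) from the array positions in the labels.

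The neqc function of limma 3.58.1 (R 4.3.3) corrected background (offset 16; the level of the negative controls was inferred through the detection p-values) and normalized by quantiles. Of 45281 probes 34885 had 1 symbol in the platform annotation, 18 several and 10378 none; 34807 were found by gene ID in a RefSeq table of GRCm38.p6, which changed 0 symbols. The filter on detection (p under 0.01, 2 arrays or more) kept 17674 probes, 33 of them of collagens. The kept probe of highest mean signal stood for its gene, which left 12451 features, 2416 of them without a symbol. A single limma model of the 6 groups was fitted to all 17 arrays, with its prior variance following the mean signal (11 residual and 6.98 prior degrees of freedom). The steps were tested on simulated data. The number of arrays limits the precision.

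The members and lists were chosen with earlier results of these data known. Values on every array are given for collagens past the threshold and for the 3 of highest mean signal in each class; from each other list, up to 4 genes past the threshold are named, or otherwise the 2 of highest mean signal. Same-numbered arrays of different groups deviated together (r over 0.1) in 8 of 40 pairs, with r from -0.22 to 0.55, so the numbers were not taken as pairs.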

Additional observations from a re-analysis of the deposited data

How the results depend on the processing

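The count of collagens past the threshold was 0 in each of the 8 comparisons and stayed 0 in 142 of 144 alternatives. Those covered no detection filter, no background correction, the authors' processed values, the BeadChip as a fixed or random block, the mean of a gene's probes, leaving out the muscle-rich arrays, leaving out each array in turn (0 to 0 in every comparison), and, chosen after seeing the data, each kept probe on its own. With only the compared groups in the fit, 1 collagen passed on day 2 (Col15a1) and 2 passed from day 2 to day 7 in PBS tumours (Col1a1 and Col15a1). With the replicate number as a block (replicate block) the count was 0 in all 8 comparisons, and it changed no call. Of 2808 recomputed differences of single genes 2765 moved by less than the spread or kept their call, 40 moved by more, and the 3 now past the threshold are those above. Requiring detection on all 17 arrays, also chosen after seeing the data, left 15 collagens and a median of -0.31 for responders against PBS and -0.37 for responders against non-responders. Col27a1, Col24a1, Col9a1, Col14a1 and Col17a1 lie near background, where the signal limits what can be measured. The groups are too small for a test of single outlying arrays.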
